A study of Mus musculus with 8 samples.

Results

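Bone marrow-derived macrophages sense their own sterol content through a small set of regulators, and 9 of these genes were examined here among the 41444 genes listed for the series. They were taken by gene symbol: Srebf1 and Srebf2, Scap, Insig1 and Insig2, Nr1h2 and Nr1h3, Mylip and Stard4. All 9 lay above the level required for testing, a mean of at least 4 on the scale of the deposited values, so none was lost to the filter on low values. The question was how their transcripts differed between macrophages given SLIT2 and macrophages given vehicle.

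SREBP proteins are transcription factors held in the endoplasmic reticulum membrane. When sterol is scarce, Scap escorts them to the Golgi, where proteases release the part that enters the nucleus. When sterol is plentiful, Insig proteins bind Scap and keep the complex in place. LXR receptors work in the other direction: oxysterols activate them, and they raise genes for cholesterol efflux and for the ligase encoded by Mylip. Macrophages that take up lipoproteins or dead cells use both arms to keep free cholesterol within limits.

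The cells were wild-type C57BL/6 macrophages grown from bone marrow in serum with the growth factor M-CSF. In the treated group they received 6 nM Slit2, a secreted ligand of ROBO receptors, for 16 hours, and in the other group vehicle control. Each group had 4 samples, and no dose, time or genotype other than these was included. Only cultured macrophages from the bone marrow were studied, and the growth medium held serum, which carries lipoprotein cholesterol.

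The measurement was RNA-seq, given as regularized-log (rlog) values on a log2 scale, so that a difference of 1 is a doubling of a well-expressed gene. No read counts were used here, so the depth behind each value is unknown. The values are not corrected for gene length, and levels are therefore compared between groups and not between genes. Replicates 1 and 2 stood apart from replicates 3 and 4 in both groups. Across the 11851 genes tested, the median absolute shift between these replicate sets was 0.165, against a median SD of 0.0605 within duplicates. Of all genes tested 6.76% were called higher and 6.58% lower with SLIT2 (limma, adjusted p under 0.05). All 9 macrophage marker genes examined passed the level filter, 2 of them called higher and 1 lower with SLIT2. Of 6 stromal and endothelial markers 4 passed it and 1 was called higher. None of the lymphocyte or adipocyte markers did, and the adipocyte markers Plin1, Cidec and Lep were listed at 0 in every library. Of 7 neutrophil markers 2 passed the level filter and 1 was called higher. The log2 of their summed linear levels ran from 11.22 to 11.45 in vehicle and from 11.85 to 12.22 in SLIT2, with Ly6g listed at 0. Such a sum is dominated by the highest marker, here with a mean of 11.66 over all libraries. For the 4 mast cell and basophil markers the log2 of the sum lay between 5.14 and 5.63 in vehicle and between 4.71 and 5.11 in SLIT2. Cpa3 and Fcer1a were listed at 0, and no marker of this list was called. Of 6 erythroid and megakaryocytic markers 1 passed the level filter, and it was not called. The log2 of their sum ran from 8.996 to 10.506 in vehicle and from 9.918 to 12.282 in SLIT2, and these ranges overlapped. Of 5 dendritic cell markers 1 passed the filter and was not called. Their log2 sums lay between 5.197 and 5.581 in vehicle and between 5.145 and 5.64 in SLIT2. The part of these marker lists in the results was not tested. In bulk RNA, fewer cells of a type and less RNA per cell cannot be told apart.

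SLIT2 left the sterol sensors split. Insig1, Stard4, Srebf2 and Nr1h2 rose, Mylip fell, and Srebf1, Scap, Insig2 and Nr1h3 did not pass the test. The 5 of 9 that passed compare with 13.3% of all genes tested (limma, two-sided, adjusted p under 0.05), of which 6.76% rose and 6.58% fell. The SLIT2 and vehicle values of 6 of the 9 genes did not overlap, 4 of them higher and 2 lower with SLIT2. This held for 20.5% of all genes tested, 10.6% higher and 9.99% lower.

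The number of sensors called moved with how the replicates were treated, as it did for all genes. With replicate number as a block, Srebf1 joined the risers and Nr1h3 the fallers, giving 5 higher and 2 lower, where 33.0% of all genes passed (16.6% higher, 16.4% lower). The replicate set as a block gave the same counts, where 39.3% passed (20.0% higher, 19.3% lower). With each pair of duplicates averaged to 1 sample, Insig1 alone passed, where 5.81% of all genes did (3.15% higher, 2.66% lower). Within replicates 1 and 2 alone 5 members were called higher and 2 lower, where 33.4% of all genes were called (16.9% higher, 16.5% lower). Within replicates 3 and 4 alone 4 were called higher and 2 lower, where 24.3% were (12.4% higher, 11.9% lower).

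**Figure D1:**
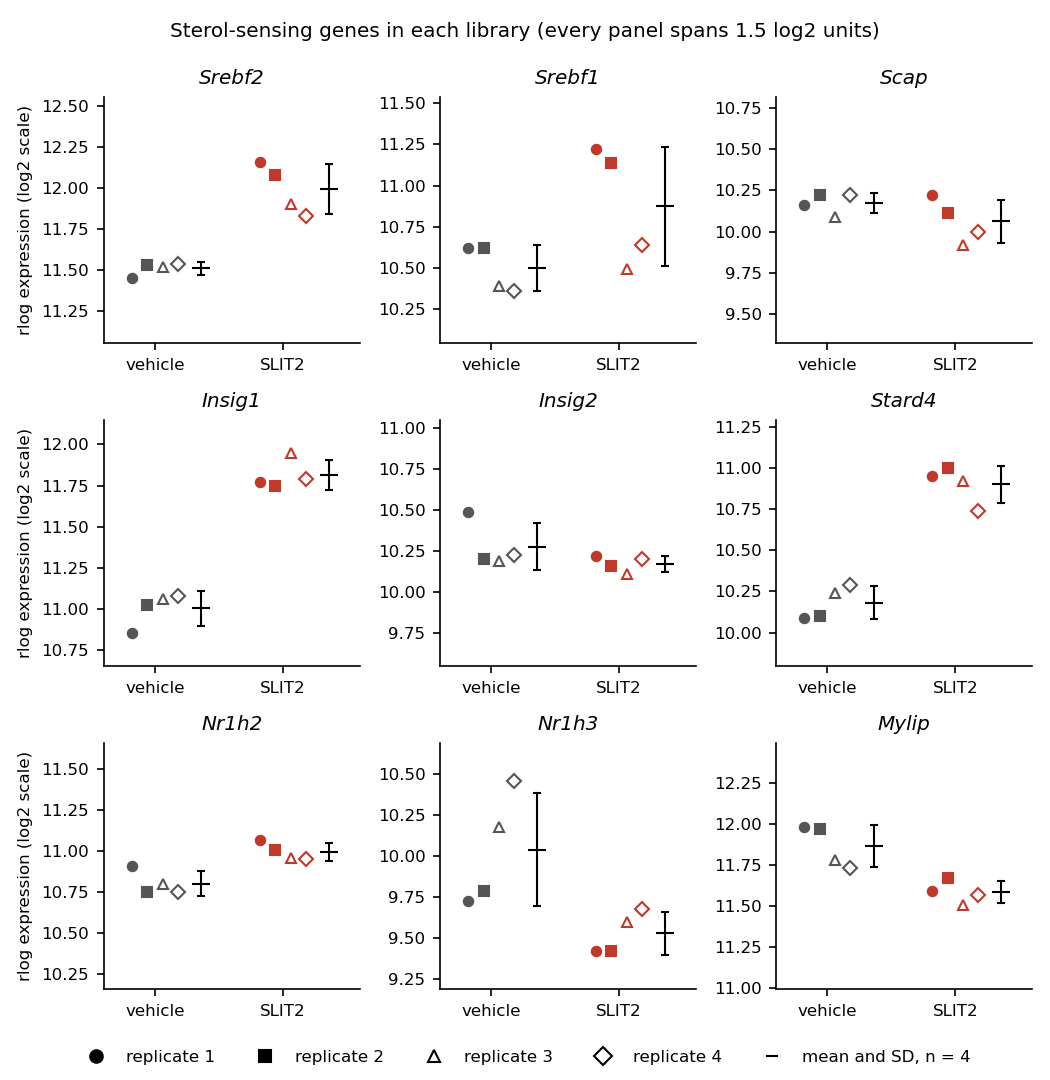
Rlog expression (log2 scale) of the 9 genes in each library, one panel per gene with the same span, vehicle at left and SLIT2 at right, filled symbols for replicates 1 and 2 and open symbols for replicates 3 and 4, with mean and SD (n = 4) beside each group. Insig1, Stard4 and Srebf2 show SLIT2 libraries wholly above the vehicle libraries, whereas the groups overlap for Srebf1, Scap and Insig2.

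Srebf2 encodes the SREBP that chiefly drives cholesterol synthesis (ENSMUSG00000022463, chromosome 15, 82147181 to 82205379 in GRCm38, plus strand). Its values were 11.45, 11.53, 11.52 and 11.54 in vehicle replicates 1 to 4 and 12.16, 12.08, 11.90 and 11.83 in SLIT2 replicates 1 to 4. Every SLIT2 library lay above every vehicle library, and within the SLIT2 group replicates 1 and 2 were the higher. Group means were 11.51 ± 0.041 and 11.99 ± 0.15 (SD, n = 4), and Srebf2 rose by 0.48 (SE 0.075, limma adjusted p = 0.00416), or 1.40-fold. Its call was kept in each of the 8 fits that left out 1 library, with adjusted p between 0.00321 and 0.0163, and was lost with averaged duplicates (adjusted p = 0.0844).

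The sequence before its start is shown because Srebf2 was a member that rose and its promoter holds the core of a sterol regulatory element, the site that SREBP proteins bind. The stretch runs up to the first annotated exon base (RefSeq, GRCm38.p6, chr15:82147019-82147180, plus strand), and capitals mark the matches to the motifs searched.

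Srebf2: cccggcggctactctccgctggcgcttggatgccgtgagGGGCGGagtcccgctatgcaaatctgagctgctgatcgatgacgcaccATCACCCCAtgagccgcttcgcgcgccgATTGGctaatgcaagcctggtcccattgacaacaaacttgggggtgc

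The motifs were the element core ATCACCCCA, the E-box CACGTG, which SREBP proteins can also bind, the NF-Y site CCAAT, the GC box GGGCGG and the LXR direct repeat, AGGTCA followed after any 4 bases by AGGTCA, each on both strands. They were chosen with these sequences in view, and the lettered sites do not overlap each other. In windows of 250 bases before to 50 after a start, the element core was found in 0.280% of the 32817 promoters of the RefSeq table, the E-box in 7.15%, CCAAT in 37.4% and the GC box in 35.6%. The LXR repeat was in 0.0152% of them. Windows were found for 8 of the 9 members, with 14 starts in all. Of these members Srebf2 alone held an exact match to the element core, 163 bases before the RefSeq start. A CCAAT match lay on the other strand 135 bases before that start. Variants of these letters were not sought, so other members may hold sterol elements or LXR sites that the search could not find. A match is a run of letters and says nothing of whether the factor was bound in these cells.

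Srebf1 encodes the SREBP that chiefly serves fatty acid synthesis (ENSMUSG00000020538, chromosome 11, 60199089 to 60222581, minus strand). Its values were 10.62, 10.62, 10.39 and 10.36 in vehicle replicates 1 to 4 and 11.22, 11.14, 10.49 and 10.64 in SLIT2 replicates 1 to 4. SLIT2 replicates 1 and 2 stood above every vehicle library, while SLIT2 replicates 3 and 4 fell within reach of vehicle replicates 1 and 2, so the groups overlapped. The log2 difference of 0.38 (95% interval -0.013 to 0.76) did not pass over all libraries (limma adjusted p = 0.206), and it passed with the replicate block (adjusted p = 0.0173). In replicates 1 and 2 the gap between treatments was 0.56, against 0.19 in the other replicates. Srebf1 has several starts, among them those of the 1a and 1c forms, and a value per gene cannot separate them. It shares 109 exonic bases with Rai1 on the opposite strand and 66 with Mir6922 on its own.

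The window of the start of Srebf1 that lies furthest downstream is shown for comparison with Srebf2 (RefSeq, GRCm38.p6, chr11:60210472-60210721, minus strand). Capitals mark the same motifs: a GC box 65 bases before the start and CCAAT on the other strand 30 bases before it. A second GC box ends at the start. Only exact matches are marked, so this stretch may hold SREBP or LXR sites that differ from the letters searched.

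Srebf1: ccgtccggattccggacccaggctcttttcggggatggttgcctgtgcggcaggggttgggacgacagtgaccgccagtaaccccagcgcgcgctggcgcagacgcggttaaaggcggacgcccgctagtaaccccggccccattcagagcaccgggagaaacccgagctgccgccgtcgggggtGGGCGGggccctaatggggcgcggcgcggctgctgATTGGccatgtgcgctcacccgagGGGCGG

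The effect of SLIT2 on both SREBP genes was larger in replicates 1 and 2. A limma model with an interaction of treatment and replicate set compared the effect in replicates 3 and 4 with that in replicates 1 and 2. The difference was -0.37 for Srebf1 (SE 0.075, adjusted p = 0.0349) and -0.30 for Srebf2 (SE 0.060, adjusted p = 0.0349). These 2 of 9 members passed where 4.40% of all genes tested did. The replicate sets were taken from earlier results of these data and not from a label, so these p-values do not test a split fixed beforehand. The test rests on the spread within duplicates, and neither gene passed it with the replicate block, without the filter on low values or without the mean-variance trend. The ratio of the pair moved little with treatment: Srebf1 minus Srebf2 averaged -1.01 ± 0.17 in vehicle and -1.12 ± 0.23 in SLIT2 (SD, n = 4). This difference of -0.11 gave p = 0.40 in an exact two-sided permutation test, which does not show that the genes respond alike.

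Scap, the sterol-sensing escort of the SREBP proteins (ENSMUSG00000032485, chromosome 9, 110333288 to 110384950, plus strand), was not called. It stood at 10.16, 10.22, 10.09 and 10.22 in vehicle replicates 1 to 4 and at 10.22, 10.11, 9.92 and 10.00 in SLIT2 replicates 1 to 4. The groups overlapped, with the lowest values in SLIT2 replicates 3 and 4. The difference was -0.11 (95% interval -0.27 to 0.054, limma adjusted p = 0.393). A gene on the opposite strand, 5830462I19Rik, shares 985 exonic bases with Scap. Whether reads were counted by strand is not known here.

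Insig1, itself a target of SREBP and the anchor that holds Scap in the endoplasmic reticulum when sterol is plentiful, showed the widest difference of the 9 genes (ENSMUSG00000045294, chromosome 5, 28071363 to 28078662, plus strand). Its values were 10.85, 11.02, 11.06 and 11.08 in vehicle replicates 1 to 4 and 11.77, 11.75, 11.95 and 11.79 in SLIT2 replicates 1 to 4. The lowest SLIT2 library was above the highest vehicle library, and all 4 SLIT2 libraries lay close together. Group means were 11.00 ± 0.10 and 11.82 ± 0.091 (SD, n = 4), and Insig1 rose by 0.81 (SE 0.067, limma adjusted p = 2.37e-04), or 1.76-fold. Replicates 1 and 2 gave 0.83 and replicates 3 and 4 gave 0.80. Insig1 passed in all 8 fits that left out 1 library and with averaged duplicates (adjusted p = 0.0262). By absolute difference it ranked 353 of the 11851 genes tested.

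The Insig1 promoter is shown beside that of Srebf2 because the pair rose together (RefSeq, GRCm38.p6, chr5:28071162-28071362, plus strand, up to the first annotated exon base).

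Insig1: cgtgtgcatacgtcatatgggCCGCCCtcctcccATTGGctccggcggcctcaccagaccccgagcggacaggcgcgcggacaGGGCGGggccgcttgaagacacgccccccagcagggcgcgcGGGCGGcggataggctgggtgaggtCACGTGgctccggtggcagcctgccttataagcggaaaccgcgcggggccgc

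Capitals mark an E-box 101 bases before the RefSeq start, CCAAT on the other strand 216 bases before it and 3 GC boxes, 1 of them on the other strand. Apart from Insig1, the E-box was found in this window in Scap only, which did not pass the test.

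Insig2, the paralog with a like role, did not follow Insig1 (ENSMUSG00000003721, chromosome 1, 121304353 to 121332589, minus strand). Its values were 10.49, 10.20, 10.19 and 10.23 in vehicle replicates 1 to 4 and 10.22, 10.16, 10.11 and 10.20 in SLIT2 replicates 1 to 4. Vehicle replicate 1 stood above the other 7 libraries, which lay within reach of each other. The difference was -0.10 with a 95% interval of -0.27 to 0.064 (limma adjusted p = 0.427).

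The divergence of the pair was tested within libraries. Insig1 minus Insig2 was 0.36, 0.82, 0.87 and 0.85 in vehicle replicates 1 to 4 and 1.55, 1.59, 1.84 and 1.59 in SLIT2 replicates 1 to 4. The groups did not overlap, and the lowest value belonged to the vehicle library with the high Insig2. The difference between groups was 0.92 (exact two-sided permutation p = 0.0286, the smallest that 4 against 4 can give, and 0.0429 adjusted over the 3 paralog pairs). The 2 replicate sets gave 0.98 (replicates 1 and 2) and 0.86 (replicates 3 and 4).

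**Figure D2:**
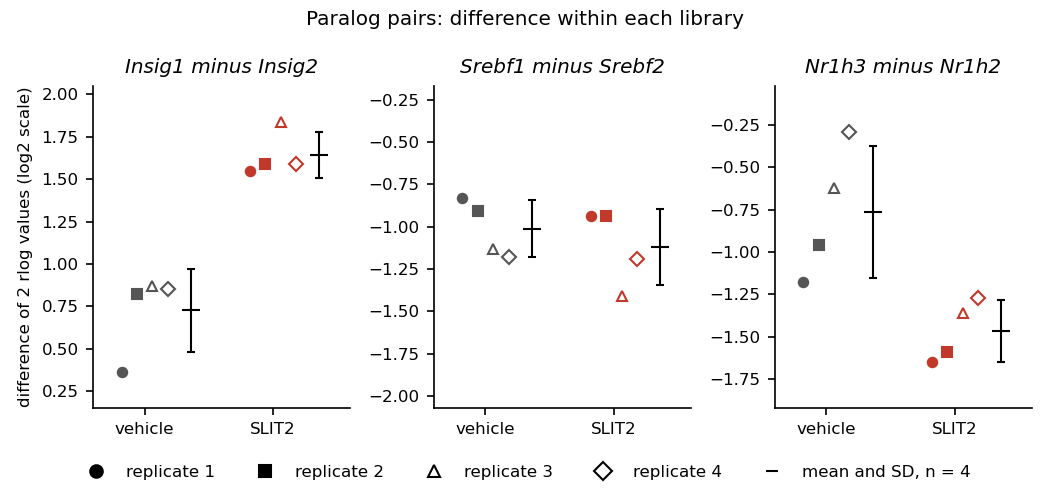
Difference of the rlog values of 2 paralogs within each library (log2 scale), vehicle at left and SLIT2 at right, with symbols by replicate and mean and SD (n = 4) beside each group; the panels share a span but not a position. Insig1 minus Insig2 was higher and Nr1h3 minus Nr1h2 lower in every SLIT2 library than in any vehicle library, and Srebf1 minus Srebf2 overlapped.

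Most genes of the machinery that moves, cuts and degrades the SREBP complex were not called. Of 26 tested genes 3 rose, 1 fell and 22 did not pass, where 6.76% of all genes tested rose and 6.58% fell. The median difference was 0.08 against 0.0025 over all genes tested. Mbtps2, the intramembrane protease that makes the second cut of SREBP, fell by 0.26 (SE 0.039, limma adjusted p = 0.00374), from values of 10.85 to 10.93 in vehicle to values of 10.59 to 10.66 in SLIT2. Mbtps1, which makes the first cut, had a difference of -0.03 (adjusted p = 0.930). Sec13 and Sar1b, parts of the COPII coat that carries Scap and SREBP to the Golgi, rose by 0.17 (adjusted p = 0.0431) and 0.15 (adjusted p = 0.0369). The 3 calls in the upward direction were Sec13, Sar1b and Sar1a. None was called when a single library was left out, except Sar1a in 1 of the 8 fits. The replicate block gave 10 higher and 2 lower, where 16.6% of all genes rose and 16.4% fell. Averaged duplicates gave 0 of either, where 5.81% of all genes passed.

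Genes that SREBP proteins are known to drive rose more widely. In cholesterol biosynthesis, 20 of 21 tested genes rose and none fell, where 6.76% of all genes tested rose and 6.58% fell. The exception, Ggps1, had a difference of 0.12 (limma adjusted p = 0.247, 0.0444 with the replicate block, 0.213 when duplicates were averaged). Over the list the median was 0.67 (0.55 within replicates 1 and 2, 0.67 within the others). The kinase gene Pmvk, of the mevalonate pathway, rose by 1.65, Fdps, which makes farnesyl diphosphate, by 1.05, and Mvd, which makes isopentenyl diphosphate, by 1.04. The change of Insig1 was within the range of these enzymes and that of Srebf2 below their median. With averaged duplicates 16 of the 21 passed, where 5.81% of all genes did.

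In fatty acid synthesis, 4 of 13 tested genes rose, 1 fell and 8 did not pass, with a median difference of 0.31. Of all genes tested 6.76% rose and 6.58% fell. Fasn, the fatty acid synthase, had values of 8.83, 8.18, 8.86 and 8.76 in vehicle replicates 1 to 4 and of 9.11, 9.60, 10.10 and 10.25 in SLIT2 replicates 1 to 4. The groups did not overlap but were widely spread, and Fasn rose by 1.11 (SE 0.26, limma adjusted p = 0.0286). This call was lost in 7 of the 8 fits that left out 1 library, all but that without SLIT2 replicate 1, with adjusted p up to 0.0733, and with averaged duplicates (0.0578). Scd2, a fatty acid desaturase, rose by 1.07 (SE 0.25, adjusted p = 0.0252) but passed only without vehicle replicate 2 or SLIT2 replicate 3 or 4 among those 8 fits. Elovl6, an elongase, rose by 0.64 (SE 0.10, adjusted p = 0.00459) and passed in all 8. Aacs also rose, by 0.53 (SE 0.056, adjusted p = 6.56e-04), and passed in all 8. Me1, the cytosolic malic enzyme that supplies NADPH, was the gene that fell, by 0.40 (adjusted p = 0.0239), a call kept in 3 of the 8 fits and lost with averaged duplicates (0.137). Between 2 and 3 genes were called higher when single libraries were left out, with 2 without vehicle replicate 1, 3 or 4 or SLIT2 replicate 2. With the replicate block 9 genes rose and 1 fell (16.6% and 16.4% of all genes), and with averaged duplicates 3 rose and 0 fell (3.15% and 2.66%).

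Stard4, a soluble carrier that moves cholesterol between membranes and is itself induced when sterol is low, rose almost as far as Insig1 (ENSMUSG00000024378, chromosome 18). Its values were 10.09, 10.10, 10.24 and 10.29 in vehicle replicates 1 to 4 and 10.95, 11.00, 10.92 and 10.74 in SLIT2 replicates 1 to 4. The gap between the groups was wider than the spread within either. Group means were 10.18 ± 0.10 and 10.90 ± 0.11 (SD, n = 4), and Stard4 rose by 0.72 (SE 0.073, limma adjusted p = 5.58e-04), or 1.65-fold. The first replicate set gave 0.88 and the second 0.57, a difference between sets that did not pass (adjusted p = 0.0754). Averaged duplicates gave an adjusted p of 0.0560, which missed the threshold.

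Other carriers and stores of sterol were called in both directions. Of 18 tested genes 2 rose and 4 fell, with a median of -0.07, where 6.76% of all genes tested rose and 6.58% fell. With the replicate block 3 rose and 7 fell (16.6% and 16.4% of all genes). With averaged duplicates 0 of either did (3.15% and 2.66% of all genes). Gramd1a, which moves cholesterol from the plasma membrane to the endoplasmic reticulum, rose by 0.59 (SE 0.12, limma adjusted p = 0.0167). Lipa, the lysosomal acid lipase that frees cholesterol from its esters, fell by 0.79 (SE 0.093, adjusted p = 0.00110), and the lipid transfer gene Osbpl8 by 0.35 (SE 0.057, adjusted p = 0.00584). Replicates 1 and 2 gave 0.74 for Gramd1a and -1.02 for Lipa, and replicates 3 and 4 gave 0.43 and -0.565. The limma interaction of treatment and replicate set, a split not fixed beforehand, passed for Gramd1a (adjusted p = 0.0345) and Lipa (0.0127). In this list 3 of 18 genes passed it, where 4.40% of all genes tested did. The lysosomal exporter gene Npc1 had a difference of -0.32 (adjusted p = 0.599, 0.00586 with the replicate block and 0.0873 with averaged duplicates).

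On the LXR side, Nr1h2, which encodes the widely expressed LXR beta, rose slightly (ENSMUSG00000060601, chromosome 7, 44549616 to 44553951, minus strand). Its values were 10.91, 10.75, 10.80 and 10.75 in vehicle replicates 1 to 4 and 11.07, 11.01, 10.96 and 10.95 in SLIT2 replicates 1 to 4. The groups came close to each other without overlapping. Group means were 10.80 ± 0.075 and 11.00 ± 0.055 (SD, n = 4), and Nr1h2 rose by 0.20 (SE 0.052, limma adjusted p = 0.0422), or 1.15-fold. This call was lost in 7 of the 8 fits that left out 1 library (all but that without vehicle replicate 1), with quantile normalization (adjusted p = 0.0584), without the filter on low values (0.0867), without the mean-variance trend (0.0587) and with averaged duplicates (0.0920).

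Nr1h3 encodes LXR alpha, the form enriched in macrophages and liver (ENSMUSG00000002108, chromosome 2, 91184061 to 91202834, minus strand). Its values were 9.73, 9.79, 10.18 and 10.46 in vehicle replicates 1 to 4 and 9.42, 9.42, 9.60 and 9.68 in SLIT2 replicates 1 to 4. Every SLIT2 library was below every vehicle library, while the vehicle libraries themselves were widely spread. In vehicle, replicates 3 and 4 exceeded replicates 1 and 2 by 0.56, more than the difference between treatments. That difference was -0.51 (SE 0.16) and did not pass (limma adjusted p = 0.0788), whereas it passed with the replicate block (adjusted p = 0.00491) and not with averaged duplicates (0.0947). Replicates 1 and 2 gave -0.34, and replicates 3 and 4 gave -0.68. Gm13783 shares 34 exonic bases with it on the same strand.

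The LXR genes diverged within libraries. Nr1h3 minus Nr1h2 was -1.18, -0.96, -0.62 and -0.29 in vehicle replicates 1 to 4 and -1.65, -1.59, -1.36 and -1.27 in SLIT2 replicates 1 to 4. All SLIT2 values were lower than all vehicle values, and the vehicle values were again the more spread. The difference between groups of -0.70 had an exact two-sided permutation p of 0.0286, the smallest possible, and of 0.0429 adjusted over the 3 pairs. Replicates 1 and 2 gave -0.55 and the others -0.86.

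**Figure D3:**
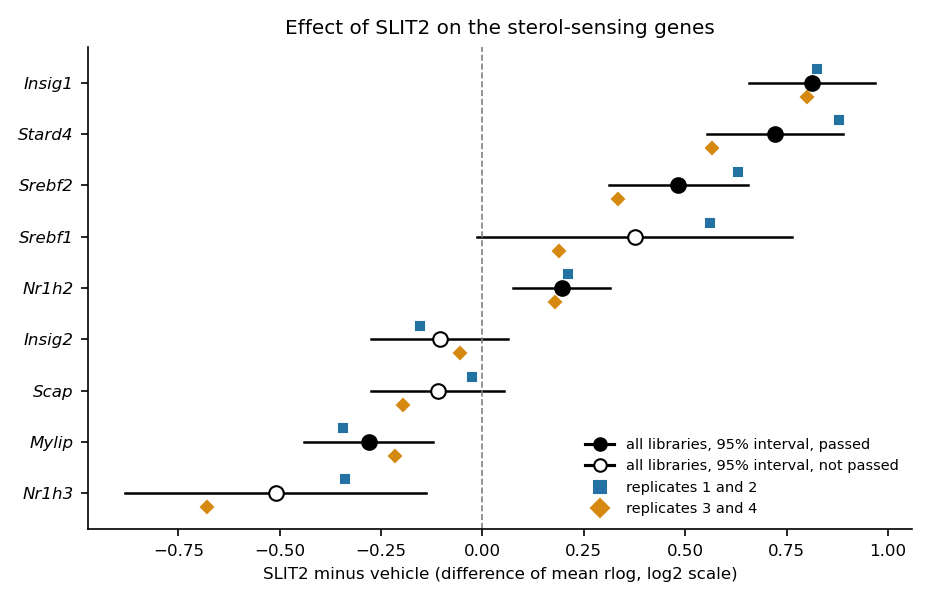
SLIT2 minus vehicle for each gene (difference of mean rlog, log2 scale), with circles and bars for all libraries with their 95% interval, filled where the limma test passed after adjustment, and small squares and diamonds for replicates 1 and 2 and for replicates 3 and 4. All 9 genes had the same sign in both sets, and the sets lie farthest apart for Srebf1 and Nr1h3.

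Mylip encodes an E3 ubiquitin ligase, induced by LXR, that sends lipoprotein receptors to the lysosome (ENSMUSG00000038175, chromosome 13, 45389742 to 45412022, plus strand). Its values were 11.98, 11.97, 11.78 and 11.73 in vehicle replicates 1 to 4 and 11.59, 11.67, 11.51 and 11.57 in SLIT2 replicates 1 to 4. It was the only one of the 9 genes that was called lower, and its groups lay close together without overlapping. Group means were 11.87 ± 0.13 and 11.59 ± 0.066 (SD, n = 4), with a difference of -0.28 (SE 0.069, limma adjusted p = 0.0335), or 0.824-fold. In the 8 fits without 1 library the adjusted p lay between 0.0242 and 0.0861. It passed without vehicle replicate 3 or 4 or SLIT2 replicate 2 and missed in the other 5. It also missed without the filter on low values (0.0548) and with averaged duplicates (0.0819).

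Among other LXR targets, 1 of 11 tested genes rose, 1 fell and 9 did not pass, where 6.76% of all genes tested rose and 6.58% fell. The difference was above 0 for 8 of the 11, and its median was 0.12 (0.075 and 0.15 in the replicate sets). The cholesterol efflux pumps Abca1 and Abcg1 had differences of 0.13 (95% interval -0.60 to 0.86, limma adjusted p = 0.860) and 0.01 (95% interval -0.12 to 0.14, adjusted p = 0.955). Abca1 differed far more between replicate sets than between treatments: vehicle replicates 1 and 2 were at 14.61 and 14.65 and replicates 3 and 4 at 13.75 and 13.60. Apoc2, a cofactor of lipoprotein lipase, rose by 0.82 (SE 0.10, adjusted p = 0.00128). Lpl, the lipase itself, fell by 0.85 (SE 0.22, adjusted p = 0.0383), and its call was kept, when single libraries were left out, only without SLIT2 replicate 4. With the replicate block, where 33.0% of all genes passed, 3 of the 11 rose and 2 fell. With averaged duplicates, where 5.81% of all genes passed, 1 rose and 0 fell, and Lpl missed the threshold (adjusted p = 0.0720).

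Rxra, which encodes the obligate partner of LXR, was not called. Its values were 11.85, 11.86, 11.69 and 11.73 in vehicle replicates 1 to 4 and 11.75, 11.72, 11.39 and 11.25 in SLIT2 replicates 1 to 4. The groups overlapped, with the lowest values in SLIT2 replicates 3 and 4. The difference was -0.25 (limma adjusted p = 0.208). It passed with the replicate block (0.0270) and not with averaged duplicates (0.171).

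Enzymes of oxysterols, the ligands of LXR, were mostly below the level tested. Of 3 tested genes 2 rose, where 6.76% of all genes tested did, and 4 further genes were not tested. Ch25h, which hydroxylates the side chain of cholesterol to an oxysterol that also binds Insig, rose from values of 6.11 to 6.82 in vehicle to values of 7.16 to 8.16 in SLIT2, by 1.23 (SE 0.23, limma adjusted p = 0.0110). Hsd3b7, a steroid dehydrogenase that converts hydroxylated sterols on the way to bile acids, rose by 0.91 (SE 0.052, adjusted p = 5.97e-05). Cyp27a1, another sterol hydroxylase, had a difference of -0.11 (adjusted p = 0.340).

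**Figure D4:**
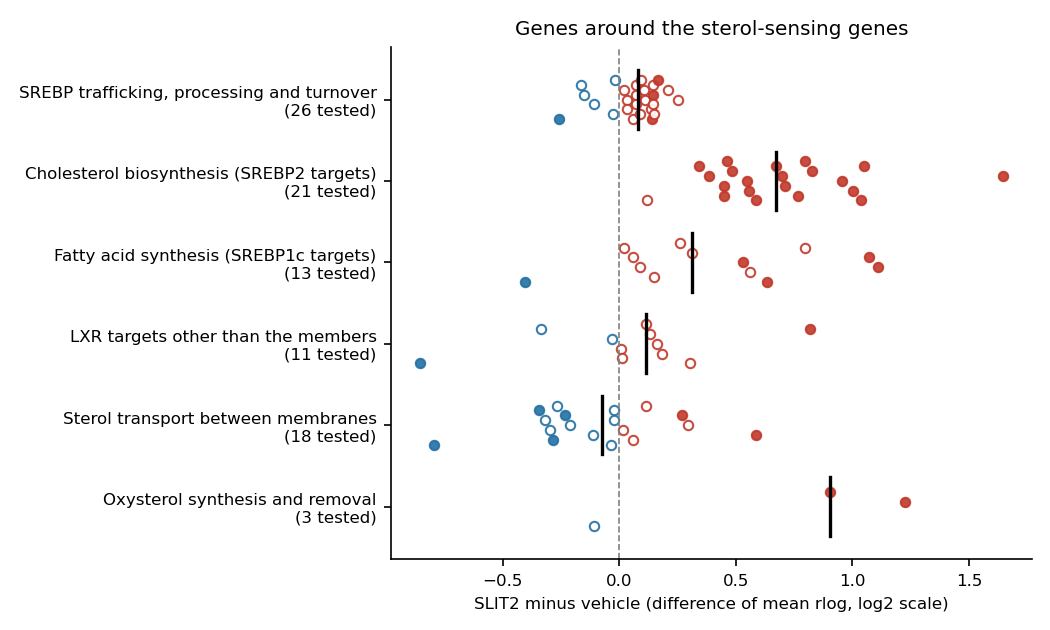
SLIT2 minus vehicle (difference of mean rlog, log2 scale) for each tested gene of 6 lists around the sterol sensors; filled points passed the limma test, red points are above and blue points below 0, and a black bar marks the median of each list. The cholesterol synthesis genes lie wholly above 0 with a median of 0.67, while the LXR targets lie on both sides of 0 with a median of 0.12.

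The genes whose 8 centred values came closest to those of each called member were sought over all genes tested, by root-mean-square difference on the log2 scale. For Insig1 these included Mcoln2, an endolysosomal channel gene (0.0573) and the homeobox gene Hlx (0.0714). Stard4 was most like Ist1, of the ESCRT machinery (0.0427), Nipa2 (0.0645) and the kinase gene Pim1 (0.0663). Nearest to Srebf2 were Vrk3 (0.0312), Gatsl2 (0.0541) and Plscr1 (0.0587), and to Nr1h2 Ftsj1 (0.0350), Sri (0.0363) and Btg3 (0.0387). Mylip lay closest to Mfhas1 (0.0260), the ubiquitin ligase gene Wwp1 (0.0357) and the adaptor gene Pik3ap1 (0.0364). None of these 14 genes belongs to the cholesterol synthesis list. The distance favours genes whose difference is of similar size, and only 3 were taken per member from all genes tested, so this says nothing of shared regulation. Mfhas1, Ftsj1 and Btg3 were themselves not called (limma adjusted p = 0.0574, 0.0745 and 0.148).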

How the data were processed

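RNA-seq of 4 vehicle and 4 SLIT2 samples was used, grouped by sample title. The authors deposited regularized-log (rlog) values on a log2 scale, to 2 decimals, library size corrected and shrunken towards each gene's mean, so differences of low genes are understated. The submitters' processing notes name FastQC 0.11.9, SAMtools 1.7, Picard 2.23.8, Salmon, STAR and DESeq2 with mm10 and GRCm38, without roles or settings (not given in the sources used). The depth per sample is unknown.

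The 11851 genes with a mean of at least 4 entered a limma 3.58.1 fit (R 4.3.3, eBayes with a trend on mean level) comparing treatments without a block, two-sided, Benjamini-Hochberg adjusted over all genes tested, threshold 0.05. Paralog pairs were tested by exact permutation over samples. The steps were tested on simulated data. Vehicle and SLIT2 samples of one number shared deviations (correlation over genes 0.637, 0.671, 0.753 and 0.587 for replicates 1 to 4). The tests were run without pairing, and replicate number as a block was an alternative, since no label says what it marks. No label states separate cultures or animals either, and p-values then reflect only variation among these samples, possibly technical.

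Members and lists were chosen with earlier results of these data known. Of 119 list genes 118 matched an identifier. Named were all members, up to 3 called genes per list with the widest difference (or the gene of lowest p) and the 3 nearest profiles per called member. Me1, Aacs, Sar1a, Ggps1, Mbtps1, Npc1, Abca1, Abcg1, Rxra and Cyp27a1 were named after their values were seen. A list of RXR partners and coregulators and 1 nearest profile are not reported here. Places and exon overlaps came from GENCODE M21 (GRCm38) and promoters from RefSeq (GRCm38.p6). Figures were drawn with matplotlib 3.10.9.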

Additional observations from a re-analysis of the deposited data

Results flagged for a closer look

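The effect of SLIT2 on Srebf1 and on Srebf2 differed between the replicate sets by a limma interaction test. SLIT2 minus vehicle in replicates 3 and 4 was below that in replicates 1 and 2, with a difference of -0.37 for Srebf1 and of -0.30 for Srebf2. The sets were taken from earlier results of these data, and what distinguishes them is not given in the labels. For Insig2, vehicle replicate 1 lay far from the other 3 vehicle samples, with a gap of 0.867 of the group's range (Dixon's ratio), a distance that chance reaches in about 1 in 20 such groups. Insig2 without that library had a difference of -0.03 (limma adjusted p = 0.760). The ratio was screened in both groups of all 9 members, so a flag of this kind can arise by chance.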

How the results depend on the processing

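Over 20 alternatives no difference of a member that passed the test changed sign. Of these, 18 were planned, with the replicate sets already known from earlier results of these data. Against 1581 genes called, 3912 were called with the replicate block, 4652 with the replicate set as a block, 688 with averaged duplicates, 3962 in replicates 1 and 2 alone and 2880 in replicates 3 and 4 alone, the last pair of fits chosen after seeing the data. Leaving out 1 library gave between 1021 and 1254. Members called lower numbered 2 with the replicate block, with the set as a block and in each set alone, 0 with averaged duplicates and without the filter, and 0 to 1 with 1 library left out. Members called higher numbered 1 with averaged duplicates. Members whose effect differed between sets numbered 0 with the replicate block, without the filter and without the trend. With replicate number as a block the pair differences stayed at 0.92 for Insig1 minus Insig2 and -0.70 for Nr1h3 minus Nr1h2, and an exact sign-flip test over 4 pairs cannot go below 0.125. With 1 library left out they ranged from 0.80 to 0.97 and from -0.84 to -0.55, and lost their call (adjusted p = 0.0857) when any 1 of the SLIT2 libraries was left out. In these fits the permutation p cannot go below 0.0286 before adjustment, and the adjusted p of a pair depends also on the p of the other pairs. The cause of these changes was not tested. With no counts, what depth limits cannot be stated.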
